A study of Mus musculus with 6 samples.

Results

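Genes that mark or control the epithelial-mesenchymal transition (EMT) were examined in CFPAC-1 cells, a human pancreatic adenocarcinoma (PAAD) line of ductal origin, after KRT7 knockdown. KRT7 encodes a keratin of simple epithelia. The comparison was between 3 libraries from cells given a siRNA against KRT7 (si-KRT7) and 3 from cells given a negative control siRNA (si-Control). All came from 1 cell line, the time after transfection and the siRNA duplex used for sequencing are not given in the sources used here, and it is not clear from them whether the libraries came from separate cultures. The p-values then measure only the spread between these libraries, which may be technical. The members were 10 genes chosen by Ensembl identifier: the epithelial genes CDH1 (ENSG00000039068) and EPCAM (ENSG00000119888), the mesenchymal genes CDH2 (ENSG00000170558), VIM (ENSG00000026025) and FN1 (ENSG00000115414), and the transcription factors SNAI1 (ENSG00000124216), SNAI2 (ENSG00000019549), ZEB1 (ENSG00000148516), ZEB2 (ENSG00000169554) and TWIST1. Of these, 9 were among the 30543 genes of the table. TWIST1 had no row in the table and was not analysed here. Of the 9, 8 were among the 15736 genes that passed the filter on low counts and were tested, and ZEB1 was not.

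In EMT, epithelial cells loosen the cadherin contacts that hold them to their neighbours and take on features of motile mesenchymal cells, among them a vimentin filament network and a fibronectin-rich matrix. Transcription factors of the SNAI, ZEB and TWIST families bind E-boxes in the promoters of epithelial genes such as CDH1 and repress them. Pancreatic cancer lines differ in how far along this axis they lie, and intermediate states that keep epithelial adhesion are well known. In such cells keratins and vimentin can form separate intermediate filament networks.

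Libraries held between 28208896 and 36315802 counts. Levels are given as CPM, a gene's reads scaled to a library of fixed size, after TMM normalization, which allows for differences in RNA composition. CPM does not allow for gene length, so levels are compared within a gene only. A gene was called differentially expressed at an adjusted p under 0.05, and separately when its absolute log2 fold change was also over 1. Replicate 2 of si-KRT7 stood apart. Its correlation with the other si-KRT7 libraries was 0.982, across genes on log2 CPM, below the 0.983 to 0.986 between the groups. With each si-Control library it was 0.986, so this library was closer to si-Control than to its own group. Fold changes and calls are therefore also given without si-KRT7 replicate 2. The targeted gene KRT7 was not analysed here, because no table used here pairs the human identifiers with symbols. Its knockdown in these libraries was therefore not checked.

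VIM was the member that passed the test. Its product vimentin builds the intermediate filaments of mesenchymal cells. VIM stood at 2.35, 2.43 and 2.64 CPM in si-Control replicates 1, 2 and 3 and at 0.781, 1.20 and 0.844 CPM in si-KRT7 replicates 1, 2 and 3. Every si-KRT7 library lay well below every si-Control library, and replicate 2 was the least reduced. The mean was 2.47 ± 0.150 CPM (SD, n = 3) in si-Control and 0.941 ± 0.226 CPM (SD, n = 3) in si-KRT7, or 38.1% of the control level. This was a log2 fold change of -1.40 (standard error 0.24, 95% interval -1.94 to -0.86), or a 2.64-fold lower level, with an adjusted p of 0.0263 in edgeR's quasi-likelihood test. Only 30 of the 15736 genes tested had a lower log2 fold change. Since the cells were sequenced in bulk, fewer VIM-positive cells and less VIM RNA per cell cannot be told apart.

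The VIM values rest on few reads. Between 26 and 88 reads were counted per library. Summed over each group, 252 reads were counted in si-Control (95% exact Poisson interval 222 to 285) and 88 in si-KRT7 (70.6 to 108), and these intervals, which cover counting error only, were far apart. Within groups the variance between libraries was 0.296 times that of counting alone in si-Control and 1.66 times in si-KRT7. The direction held in all 15 alternative fits, with a log2 fold change between -1.61 and -1.28. The call was less stable. It was kept without si-KRT7 replicate 2, where its log2 fold change reached -1.61 (edgeR, adjusted p = 4.79e-05) and 2.20% of all genes passed both limits, and lost without any one of the other libraries, where the adjusted p in edgeR was 0.146, 0.144 and 0.166 without si-Control replicates 1, 2 and 3, and 0.0991 and 0.127 without si-KRT7 replicates 1 and 3. Calls over all genes also fell in these 5 fits, from 325 to 6, 6, 10, 87 and 36 by the adjusted p. VIM has an antisense neighbour, VIM-AS1, and strand-specific counting is not stated, so reads from the pair cannot be told apart.

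**Figure D1:**
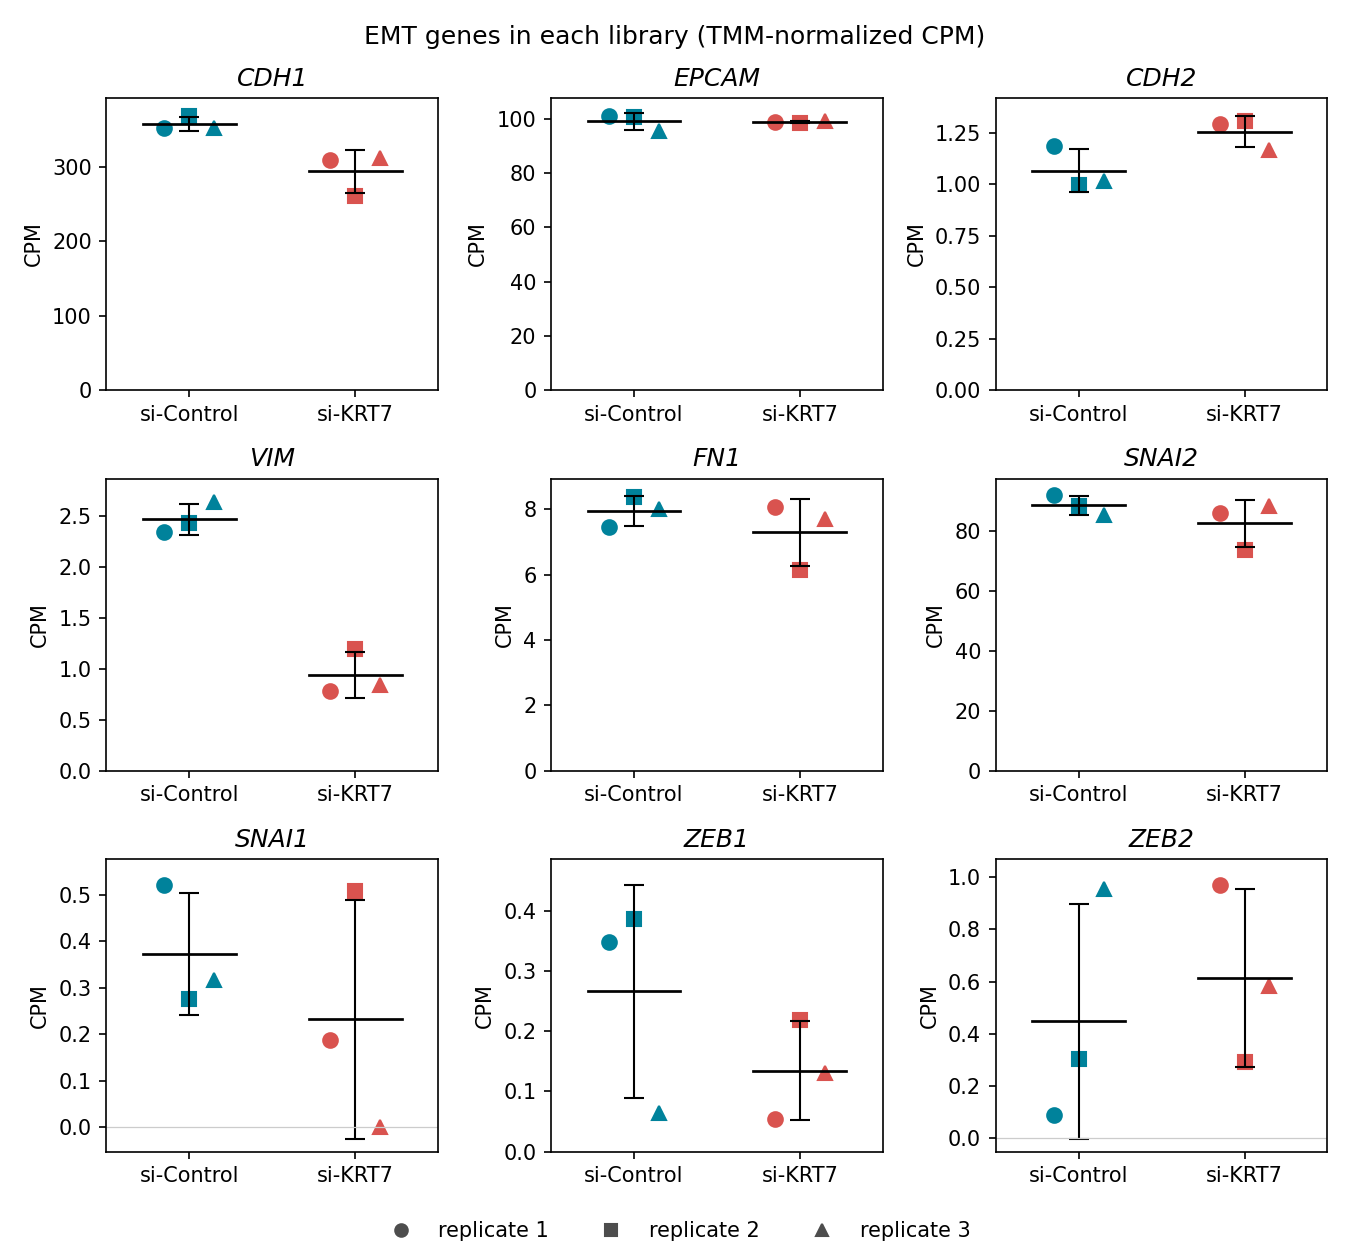
TMM-normalized CPM (vertical axes, each gene on its own scale) of the 9 EMT genes in si-Control and si-KRT7 libraries; symbols are single libraries, horizontal lines means and bars SD (n = 3). VIM lies between 2.35 and 2.64 CPM in si-Control and between 0.781 and 1.20 CPM in si-KRT7, while EPCAM sits near 99 CPM in both groups and SNAI1, ZEB1 and ZEB2 scatter widely at under 1 CPM.

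Past both limits, VIM was 1 of the 8 members tested, against 0.292% of all genes tested, or 46 of 15736 (23 lower, 0.146%). By the adjusted p alone it was again the sole member, against 2.07% of all genes (1.35% lower). The median log2 fold change of the 8 members was -0.11, beside 0.011 for all genes tested, and 6 members lay below 0 and 2 above it. The median size of the log2 fold change, irrespective of sign, was 0.26 in the members and 0.18 over all genes. Without si-KRT7 replicate 2 the members' size, now over 9 genes, was below that of all genes, 0.20 against 0.25, and their median log2 fold change was -0.028 beside -0.0094. With so few genes at very different depths, these medians are a description only.

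CDH1, which encodes the cadherin of epithelial adherens junctions, was lower in every si-KRT7 library but did not pass the adjusted p. It stood at 352, 368 and 351 CPM in si-Control replicates 1, 2 and 3, and at 310, 261 and 312 CPM in those of si-KRT7. The groups did not overlap, and si-KRT7 replicate 2 was the lowest. No overlap was also found in 24.4% of all genes tested (13.0% lower), and among the 9 members with a row only in CDH1 and VIM. Without si-KRT7 replicate 2 the groups did not overlap in 3 members (CDH1, VIM and SNAI1), against 60.6% of all genes. For CDH1 the log2 fold change came to -0.28 (standard error 0.087, 95% interval -0.48 to -0.082, adjusted p = 0.140 in edgeR). Its p before adjustment was under 0.05, which held for 18.6% of all genes.

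The CDH1 result depended on replicate 2. Without it the difference was smaller but more precise: CDH1 fell by 0.20 on the log2 scale (standard error 0.033, 95% interval -0.27 to -0.14, adjusted p = 2.24e-05 in edgeR). In that fit 42.9% of all 16202 genes tested passed the adjusted p (22.0% lower). Variation between replicates, as edgeR's biological coefficient of variation, was 0.0485 there and 0.130 when replicate 2 was kept. The limit on the fold change was not reached in either fit. In the other 5 fits that left out a library the adjusted p lay between 0.243 and 0.415. CDH1 was counted with 7172 to 13326 reads per library, so its precision was set by the spread between libraries rather than by counting.

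EPCAM, which encodes another epithelial adhesion molecule, did not differ detectably. The si-Control libraries lay between 95.4 and 101 CPM and the si-KRT7 libraries between 98.3 and 99.2 CPM, inside the control range. Its log2 fold change of -0.0045 had a 95% interval of -0.17 to 0.16, which leaves room for small changes in either direction. In edgeR the adjusted p was 0.982, and it was 0.939 without si-KRT7 replicate 2. With at least 2704 reads in each library, EPCAM, like CDH1, was well covered, so both epithelial markers were present in every library of this line.

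CDH2 encodes N-cadherin, the cadherin that replaces E-cadherin in many cells that undergo EMT. It was counted with 32 to 48 reads per library. Levels were 1.19, 0.995 and 1.02 CPM in si-Control replicates 1, 2 and 3 and 1.29, 1.31 and 1.17 CPM in those of si-KRT7. The ranges overlapped, since si-Control replicate 1 lay above si-KRT7 replicate 3. CDH2 had a log2 fold change of 0.24 with a 95% interval of -0.30 to 0.77 and an adjusted p of 0.642 in edgeR, so neither a rise nor a small fall within that interval was detectable at this depth. Without si-KRT7 replicate 2 it was 0.20 (95% interval -0.46 to 0.87). Within both groups the variance between libraries was below that of counting (0.363 and 0.144 times).

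FN1 encodes fibronectin, an extracellular matrix glycoprotein. It stood at 7.48 to 8.37 CPM in si-Control and at 8.08, 6.15 and 7.69 CPM in si-KRT7 replicates 1, 2 and 3. Replicate 2 alone lay below the control range. FN1 had a log2 fold change of -0.12 (95% interval -0.44 to 0.20, adjusted p = 0.698 in edgeR) and -0.015 without replicate 2 (95% interval -0.27 to 0.24). Neither of these mesenchymal genes passed the test that VIM passed, and the difference between VIM and them was not itself tested.

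**Figure D2:**
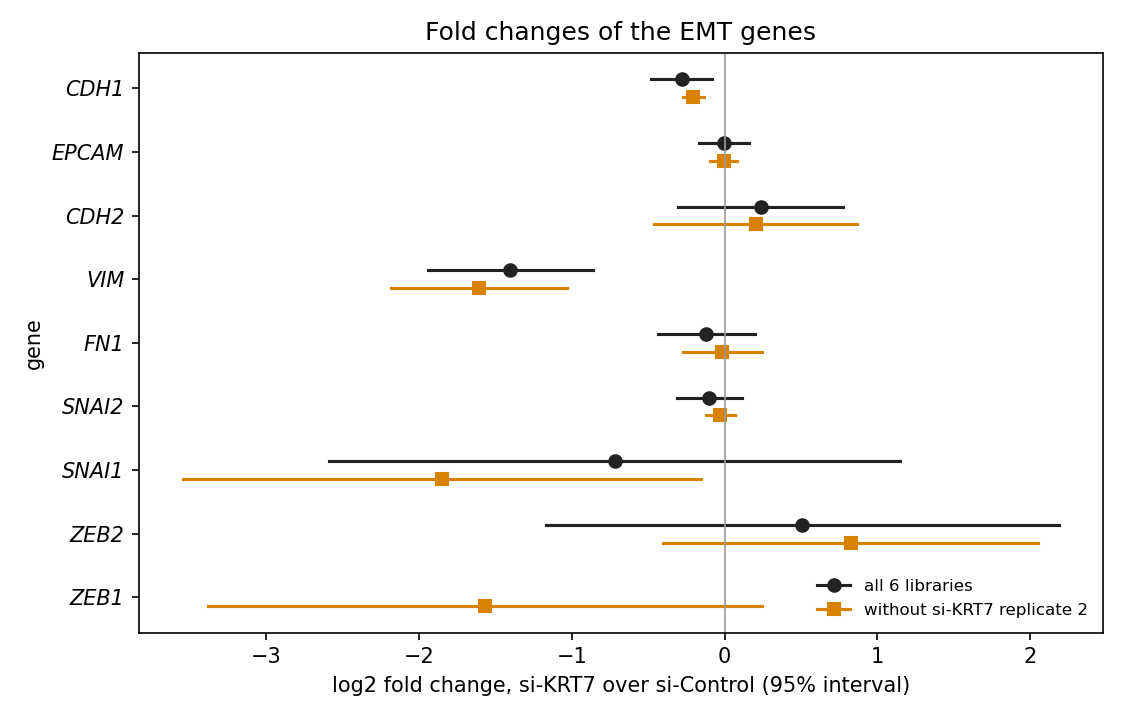
Log2 fold change of si-KRT7 over si-Control (horizontal axis) with 95% intervals for each EMT gene, with all 6 libraries (circles) and without si-KRT7 replicate 2 (squares); ZEB1 was tested only in the latter. The VIM and CDH1 intervals lie below 0 in both fits, with all libraries from -1.94 to -0.86 and from -0.48 to -0.082. Those of EPCAM, CDH2, FN1, SNAI2 and ZEB2 include 0 in both. The SNAI1 interval includes 0 with all libraries, but not without replicate 2 (-3.54 to -0.15).

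SNAI2 (Slug) was the transcription factor of the list with ample reads, between 2022 and 3194 per library. It stood at 91.8, 88.2 and 85.4 CPM in si-Control replicates 1, 2 and 3 and at 85.8, 73.5 and 88.2 CPM in those of si-KRT7. Apart from replicate 2, which was lower, the groups covered a similar range. For SNAI2 it came to -0.10 on the log2 scale (standard error 0.093, 95% interval -0.31 to 0.11, adjusted p = 0.608 in edgeR) and -0.028 without replicate 2 (95% interval -0.12 to 0.067).

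SNAI1 (Snail), a repressor of CDH1, was near the limit of detection. The libraries held 18, 10 and 10 reads in si-Control replicates 1, 2 and 3 and 7, 14 and 0 in those of si-KRT7. A count of 0 in replicate 3 allows a level of up to 0.0974 CPM, that of 3 reads. The si-KRT7 libraries scattered far more than counting alone gives, with a variance 8.70 times as large, and no direction could be read from them. SNAI1 had a log2 fold change of -0.72 with a 95% interval of -2.59 to 1.15 (adjusted p = 0.690 in edgeR). It was -1.85 without replicate 2 (95% interval -3.54 to -0.15, adjusted p = 0.0742 in edgeR), and -0.14 without replicate 3 (adjusted p = 0.955). SNAI1 passed in 1 of its 14 alternatives, limma-voom with sample quality weights, with a log2 fold change of -3.004 and an adjusted p of 0.00374, a fit in which 43.6% of all genes passed and which includes the library at 0. SNAI1 also has a processed pseudogene with which reads may be shared.

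ZEB1 and ZEB2 encode zinc-finger repressors that bind E-boxes in epithelial promoters. ZEB1 held 12, 14 and 2 reads in si-Control replicates 1, 2 and 3 and 2, 6 and 4 in those of si-KRT7, which the filter on low counts removed. Without any filter it gave an adjusted p of 0.645 in edgeR. It passed the filter without si-KRT7 replicate 1, 2 or 3, with log2 fold changes of -0.64, -1.57 and -1.06 (adjusted p = 0.802, 0.162 and 0.718 in edgeR). The same held without si-Control replicate 3, where the log2 fold change was -1.49 (adjusted p = 0.438 in edgeR). ZEB2 held 3, 11 and 30 reads in si-Control and 36, 8 and 18 in si-KRT7 replicates 1, 2 and 3. Its control libraries alone spanned 0.0869 to 0.953 CPM, a variance 15.4 times that of counting, and of the si-KRT7 libraries only replicate 1, at 0.969 CPM, lay outside that span. For ZEB2 the log2 fold change was 0.51 with a 95% interval of -1.17 to 2.19 (adjusted p = 0.760 in edgeR), and 0.82 without replicate 2 (95% interval -0.40 to 2.05). Both genes have antisense neighbours whose reads may be included. Differences in SNAI1, ZEB1 and ZEB2 smaller than several-fold were not detectable in these libraries.

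**Figure D3:**
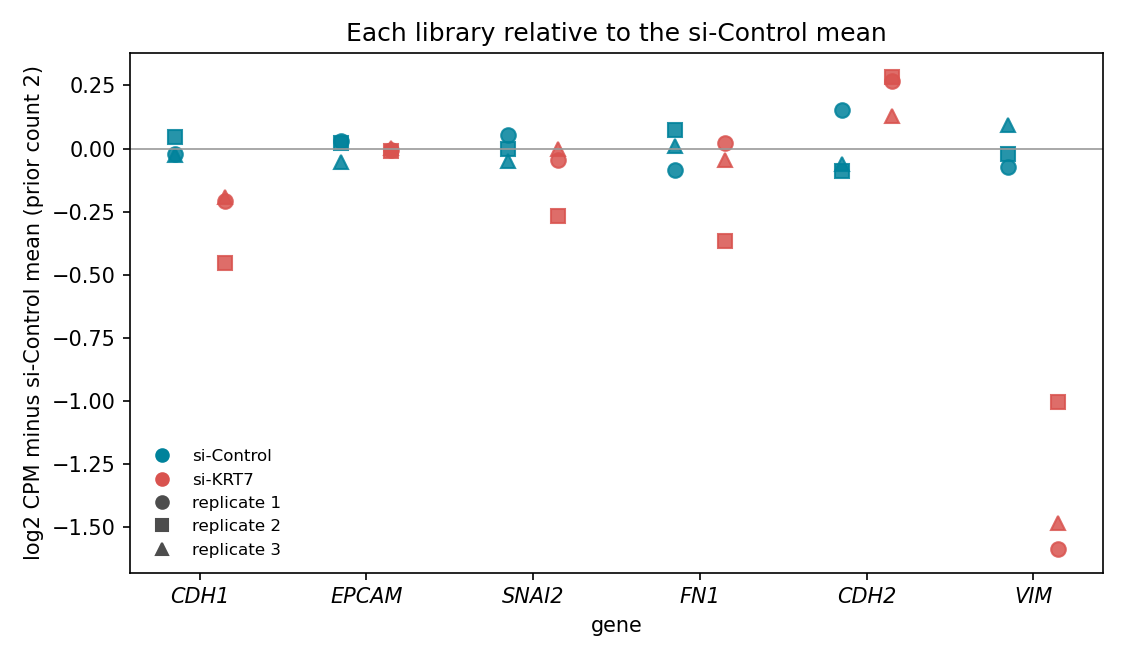
Log2 CPM of each library minus the si-Control mean (vertical axis, prior count 2) for the 6 EMT genes with at least 26 reads in every library; colours give the group and symbols the replicate. In si-KRT7 replicate 2 (red squares) CDH1, SNAI2 and FN1 are the lowest of all libraries, at -0.45, -0.27 and -0.37. VIM, which rests on few reads, lies at -1.005 there, the least reduced of the 3 si-KRT7 libraries.

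Replicate 2 differed from the other si-KRT7 libraries in CDH1, FN1 and SNAI2, and little in EPCAM and CDH2. VIM was the least reduced there, but it rests on 26 to 33 reads in these libraries. Its variance between si-KRT7 libraries was 1.66 times that of counting, against 82.5 times for CDH1, 21.7 for SNAI2 and 4.25 for FN1. The order of these libraries in VIM was thus not resolved. Such ratios rise with read depth and do not rank the genes by spread. The SD of log2 CPM in si-KRT7 was 0.31 for VIM, 0.15 for CDH1, 0.14 for SNAI2 and 0.21 for FN1. On the log2 scale, relative to the si-Control mean, VIM lay at -1.59 and -1.48 in replicates 1 and 3 and at -1.005 in replicate 2. CDH1 lay at -0.21 and -0.19 in replicates 1 and 3 and at -0.45 in replicate 2. FN1 and SNAI2 followed CDH1: they lay at -0.37 and -0.27 in replicate 2, and between -0.046 and 0.024 in replicates 1 and 3. EPCAM stayed between -0.0096 and 0.0034 in the 3 libraries, and CDH2 stood at 0.27, 0.29 and 0.13 in replicates 1, 2 and 3. For CDH1, FN1 and SNAI2, replicate 2 was the lowest of all 6 libraries. What sets this library apart was not tested.

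The balance of CDH1 to mesenchymal genes was followed as ratios within each library. These do not depend on the scaling of libraries apart from the prior count. Relative to the si-Control mean, the log2 ratio of CDH1 to CDH2 was -0.47, -0.74 and -0.32 in replicates 1, 2 and 3 of si-KRT7, and between -0.17 and 0.14 in si-Control. It was lower in 3 of 3 si-KRT7 libraries, by -0.51 on average (SD 0.16 in si-Control and 0.21 in si-KRT7, n = 3 each). The log2 ratio of CDH1 to VIM moved the other way, to 1.38, 0.55 and 1.29 in si-KRT7 replicates 1, 2 and 3 against -0.12 to 0.066 in si-Control, a mean difference of 1.07 (SD 0.10 and 0.46). Both ratios are built from the values above and share CDH1, so they add no separate evidence. CDH2 in si-Control and si-KRT7 (0.363 and 0.144 times) and VIM in si-Control (0.296 times) varied less between libraries than counting gives. The SDs of these ratios may therefore understate their uncertainty. For each single member with reads in every library the two-sided exact permutation test of log2 CPM could not give less than p = 0.1 with 3 libraries against 3. CDH1 and VIM reached that value, CDH2 had p = 0.2 in the exact permutation test, and the other members had between 0.4 and 1.

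**Figure D4:**
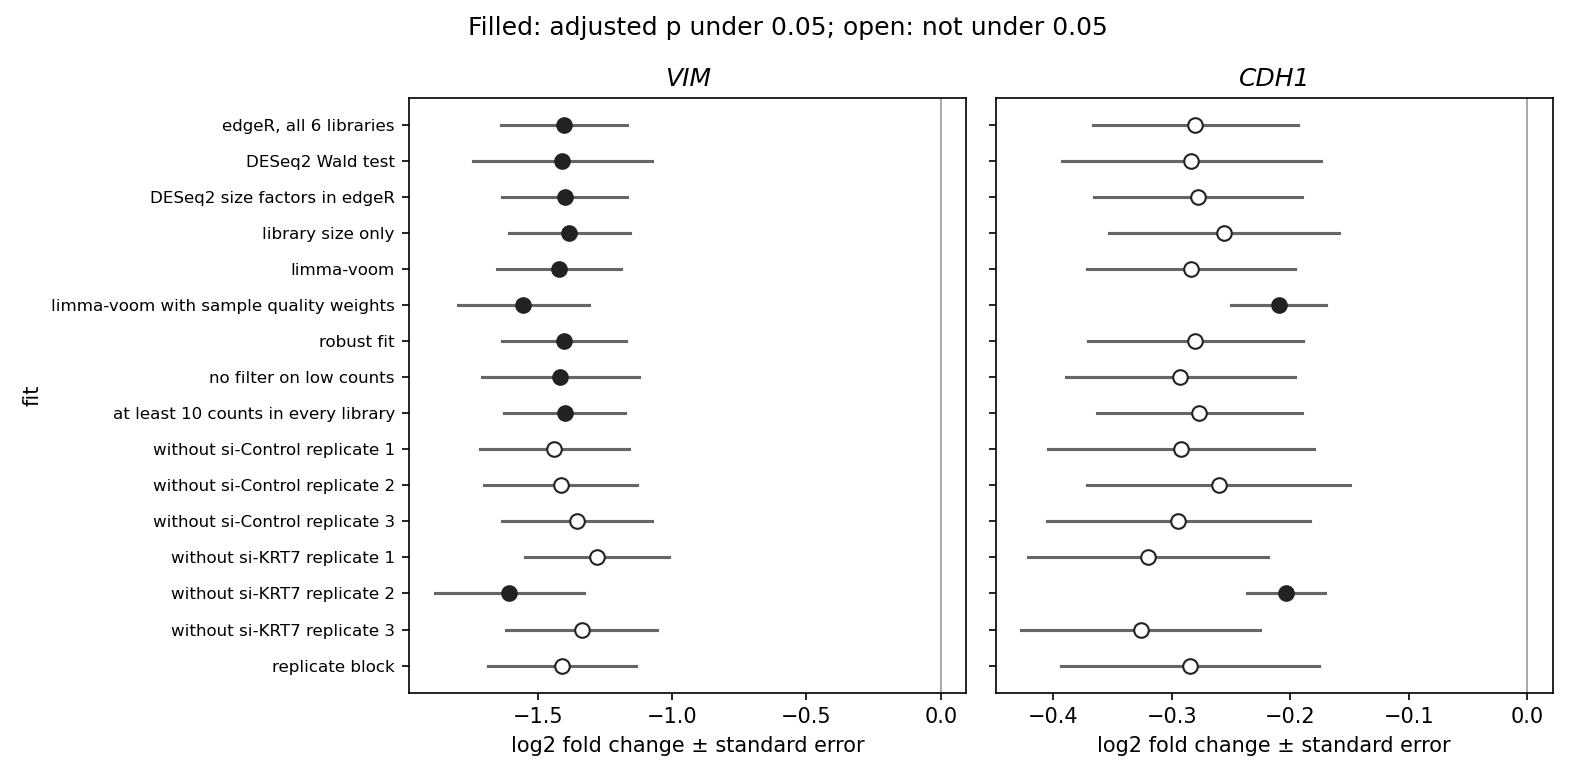
Log2 fold change of si-KRT7 over si-Control with its standard error (horizontal axes, different ranges) for VIM and CDH1 under each fit (vertical axis); filled points have an adjusted p under 0.05. VIM stays between -1.61 and -1.28 and is called in 9 of 15 alternatives, and CDH1 stays between -0.33 and -0.20 and is called in 2 of 15.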

How the data were processed

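Polyadenylated RNA was sequenced on the DNBSEQ platform. The authors deposited raw, unnormalized read counts in each library for 30543 genes, all of them with reads in some library. The series is labelled Mus musculus, and the submitters' processing notes name STAR 2.7.11b and the mouse build GRCm39. All 30543 identifiers, however, are human Ensembl ones. The counting tool and annotation are not given in the sources used here. Columns headed NC and Si were taken as si-Control and si-KRT7. None of the identifiers matched the mouse name tables at hand (0 matched), so only the members, whose symbols are known, are named, and other EMT genes and cell type markers, sequences, KRT7, and genes most alike in pattern were not analysed here.

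Counts were filtered with filterByExpr, which kept 99.9% of reads, normalized with TMM (factors 0.976 to 1.03) and tested on all genes with glmQLFit and glmQLFTest in edgeR 4.0.16 (R 4.3.3), with Benjamini-Hochberg adjustment. Standard errors were derived from the F statistic. Alternatives used DESeq2 1.42.0, limma 3.58.1 with voom, other scalings and filters, each library left out, and the replicate number as a block. The edgeR, DESeq2 and limma-voom fits were tested on simulated data. The simulation gave all libraries the same spread and held no library that stands apart, so it does not cover the effect of si-KRT7 replicate 2. Log2 CPM used a prior count of 2. No 2 libraries agreed within sampling noise (mean chi-square per gene at least 3.70, where counting noise gives about 1). The members, lists and tests were chosen with earlier results of these data known, and all members are named.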

Additional observations from a re-analysis of the deposited data

How the results depend on the processing

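The number of members with an adjusted p under 0.05 (1, VIM) and past both limits (1) was the same with the DESeq2 Wald test, limma-voom, scaling by library size or by DESeq2 size factors, a robust fit, no filter on low counts and a minimum of 10 counts per library. Sample quality weights in limma-voom gave 3 members by the adjusted p (VIM, CDH1 and SNAI1) and 2 past both limits, in a fit that passed 43.6% and 2.82% of all genes. When single libraries were left out, the numbers ran from 0 to 2 and from 0 to 1, while 42.9% of all genes passed the adjusted p without si-KRT7 replicate 2 and between 0.0372% and 0.542% without any other library. With the replicate block, 0 members passed either limit. VIM then had a log2 fold change of -1.41 with an adjusted p of 0.0757 in edgeR. In that fit 76 of all genes passed the adjusted p, against 325 without the block. Departures from the treatment mean, compared between libraries of the same number, had correlations of 0.052, -0.0798 and -0.0728 for replicates 1, 2 and 3. These values cannot settle whether such libraries were paired, since replicate 2, which stood apart, weighs on that mean in si-KRT7. EPCAM, with a log2 fold change of -0.0045, turned to 0.017 with library size only and ran from -0.033 to 0.0087 when single libraries were left out. The cause of these moves was not tested. Both ratios of CDH1 moved by less than the larger SD of the groups with a prior count of 0.5, with library size only and, added after seeing the data, without si-KRT7 replicate 2 (-0.40 for CDH2, and 1.34 for VIM, a move larger than the si-Control SD of 0.10). Few reads limit VIM and CDH2, and SNAI1 and ZEB2 also spread beyond counting noise.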

Other observations

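The ratio of CDH1 to SNAI2 varied little among si-KRT7 libraries, although both genes were lowest in replicate 2. Relative to the si-Control mean, this log2 ratio was -0.16, -0.19 and -0.19 for replicates 1, 2 and 3 of si-KRT7. In si-Control it was -0.074, 0.047 and 0.027. Its SD in si-KRT7 was 0.015, against 0.15 for log2 CPM of CDH1 and 0.14 for SNAI2 on their own. The comparison went the other way in si-Control, where the SD of the ratio was 0.065, against 0.038 for CDH1 and 0.052 for SNAI2. Counting alone gives an SD above 0.015 at 2022 to 3194 SNAI2 reads per library, so how little this ratio varies was not resolved. The ratio was picked after the values were seen, is given for 3 libraries a group, and was not tested. The log2 ratio of CDH1 to EPCAM, by contrast, lay at -0.20 in replicates 1 and 3 and at -0.44 in replicate 2.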
